A study of Mus musculus with 6 samples.

Results

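Regulatory T cells are the CD4 T cells that restrain immune responses, and a set of 10 genes that mark or serve them in the thymus was followed here: Foxp3, Ctla4, Il2ra, Tnfrsf4, Tnfrsf9, Tnfrsf18, Ikzf2, Ikzf4, Gpr83 and Lrrc32. The 10 were found by gene symbol among 22298 genes that were listed for every library, and each symbol matched 1 row. RNA was sequenced from thymocytes of untreated C57BL/6 mice, with 3 libraries of the genotype Toxf/f (floxed Tox, no Cre, here the control) and 3 of the genotype Toxf/fCd4Cre, in which the floxed Tox gene meets a Cre recombinase driven by Cd4 regulatory sequences. In each genotype the mice were 4 weeks old for replicate 1 and 3 weeks old for the other 2 replicates. The labels name no mouse for a replicate. Age sets replicate 1 of each genotype apart from the others, and Y-linked counts (below) set control replicate 2 apart from control replicate 3. Nothing says that replicates 2 and 3 of Toxf/fCd4Cre came from separate mice, so p-values measure the spread between these libraries, which may be technical in part. All libraries carry the floxed allele, and none has Cre with an intact Tox gene, so that Tox loss and Cre itself cannot be told apart.

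Most regulatory T cells arise in the thymus from CD4 thymocytes that have met self-antigen. Strong T cell receptor signals and CD28 co-stimulation first raise Il2ra, which encodes CD25, the subunit that gives the interleukin-2 receptor its high affinity, together with the TNF receptor family members GITR (Tnfrsf18), OX40 (Tnfrsf4) and 4-1BB (Tnfrsf9). Interleukin-2 acting through STAT5 then leads to expression of Foxp3, the forkhead factor that defines the lineage. None of the other 9 genes is restricted to regulatory T cells: CD25 also marks early double-negative thymocytes, and activated T cells carry CTLA-4 and the TNF receptors.

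In the Toxf/fCd4Cre libraries, 7 of the 10 genes were lower and none was higher. Foxp3 was close to 0, Tnfrsf4, Gpr83, Tnfrsf9 and Ikzf4 stood at 25.2% to 31.5% of the control mean, and Lrrc32 and Tnfrsf18 at 52.8% and 59.7%. Ctla4, Il2ra and Ikzf2 did not pass the test and stood at 116.5%, 114% and 106% of the control mean. Of the 13934 genes tested, 2.96% were lower and 1.15% were higher at an adjusted p under 0.05 in the edgeR quasi-likelihood test, so that the 7 of 10 stood above the share over all genes. The median log2 fold change (Toxf/fCd4Cre minus control) was -1.29 over the 10 genes and 0.01 over all genes tested. All 10 passed the filter on low counts, Foxp3 only through the control libraries. It had at most 2.05 counts in a Toxf/fCd4Cre library. The groups did not overlap for 8 of the 10 genes, the 7 lower ones and Il2ra, against 22% of all genes tested (10.6% lower, 11.3% higher). The 10 genes were chosen with earlier results of these libraries known.

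The libraries held 14550593 to 16099023 estimated counts, and Tox fell from 104 ± 4.89 to 12.6 ± 2.43 CPM (counts scaled to library size with TMM factors; SD, n = 3) with an edgeR adjusted p = 3.55e-08. Sample titles name double-negative thymocytes and the labels' protocols a DN2 sort, yet the coreceptor transcripts Cd4 (906 to 929 CPM) and Cd8a (1658 to 1755 CPM) were abundant in the controls. Y-linked genes summed to 3740 counts in control replicate 2 and to at most 5 in each other library. As these are bulk libraries, fewer cells of a type and less RNA per cell cannot be told apart in any value below.

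**Figure D1:**
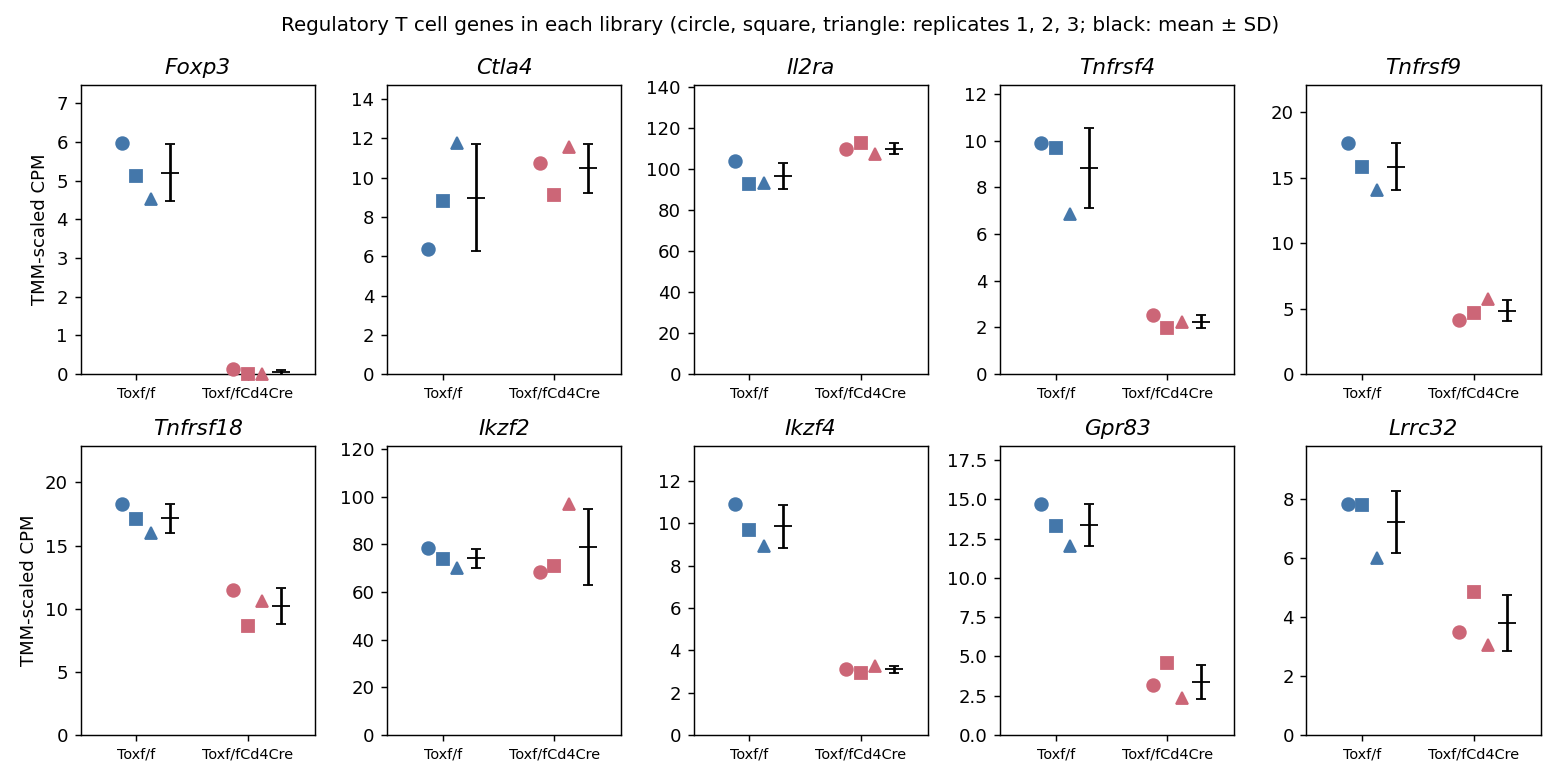
TMM-scaled CPM (y axis, from 0) of the 10 regulatory T cell genes in the 3 Toxf/f and 3 Toxf/fCd4Cre libraries, with mean ± SD in black. Foxp3 lay between 4.52 and 5.98 CPM in the controls and between 0 and 0.127 CPM in Toxf/fCd4Cre, whereas the groups overlapped for Ctla4 and Ikzf2.

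Foxp3 (ENSMUSG00000039521, chromosome X) encodes the transcription factor without which regulatory T cells do not form. It had 93.39, 75.27 and 68.23 estimated counts in control replicates 1 to 3, and 2.05, 0 and 0 in Toxf/fCd4Cre replicates 1 to 3. Every control library was thus well above every Toxf/fCd4Cre library. In CPM the controls were at 5.98, 5.12 and 4.52 (5.21 ± 0.732) and the Toxf/fCd4Cre libraries at 0.127, 0 and 0. After rounding, 236 counts in the controls stood against 2, a ratio of 0.829% after scaling for library size (95% interval 0.0998% to 3.03%, Clopper-Pearson, counting error only). The edgeR adjusted p was 1.61e-05, and it was at most 0.00107 over the 16 alternative settings that tested the gene. Leaving out control replicate 2 gave an adjusted p of 9.94e-05. In GENCODE M21 the exons of Foxp3 overlap those of Ccdc22 on the other strand over 590 of 4577 bases, and on its own strand those of the non-coding gene Flicr over 853 bases, which strand would not separate. On the other strand Gm36995 overlaps 373 bases and Ppp1r3f 266 bases. The use of strand in counting is not given in the sources used here. Ccdc22, an endosomal trafficking gene, was at 27.5 to 32 CPM over the 6 libraries (log2 fold change -0.07, edgeR adjusted p = 0.77).

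RefSeq promoter windows (GRCm38.p6) were found for 7 of the 10 genes. Ikzf2, Ikzf4 and Lrrc32 had none. The 250 bases before 1 start site are printed for Foxp3 and Tnfrsf9, which fell, and for Ctla4, which did not pass, so that the letters before genes with different outcomes can be compared. Capitals mark matches on either strand to 5 motifs: TGTTTAC (forkhead), TTCNNNGAA (STAT), TGANTCA (AP-1), GGAAA (NFAT core, TTTCC on the other strand) and TGTGGT (Runx). The windows lie on the plus strand at chrX:7580233-7580482 (Foxp3, the downstream of 2 start sites), chr4:150919905-150920154 (Tnfrsf9, the upstream of 2) and chr1:60908775-60909024 (Ctla4).
Foxp3: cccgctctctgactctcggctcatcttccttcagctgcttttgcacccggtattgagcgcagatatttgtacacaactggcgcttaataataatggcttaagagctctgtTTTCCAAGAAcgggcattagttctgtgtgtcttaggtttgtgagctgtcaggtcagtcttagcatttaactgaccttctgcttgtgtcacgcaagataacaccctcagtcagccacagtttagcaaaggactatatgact
Tnfrsf9: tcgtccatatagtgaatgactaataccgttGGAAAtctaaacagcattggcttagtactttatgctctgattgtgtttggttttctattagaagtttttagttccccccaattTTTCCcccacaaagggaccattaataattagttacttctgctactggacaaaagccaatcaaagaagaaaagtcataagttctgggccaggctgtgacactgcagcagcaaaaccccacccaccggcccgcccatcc
Ctla4: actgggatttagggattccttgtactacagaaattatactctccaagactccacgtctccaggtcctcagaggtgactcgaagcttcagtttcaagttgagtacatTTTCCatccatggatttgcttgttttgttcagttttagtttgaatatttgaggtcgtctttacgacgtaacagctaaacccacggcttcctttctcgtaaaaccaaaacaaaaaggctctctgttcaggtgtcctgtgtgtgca
The Foxp3 window held a STAT match, which starts 139 bases before the start site and overlaps an NFAT core match. The 7 genes have 9 windows, as Foxp3 and Tnfrsf9 have 2 each. A STAT match was found in 3 of the 9 (this Foxp3 window but not its other one, the other Tnfrsf9 window, and Tnfrsf18), and in 7% of 32851 windows of the same length. An NFAT core match was found in 8 of the 9, all but that of Gpr83, and in 55.6% of all windows. NFAT core matches thus preceded genes that fell as well as Ctla4 and Il2ra, which did not pass. An AP-1 match was found for Tnfrsf9 alone, at its other start site, and no forkhead or Runx match in any of the 9, against 6.7%, 3.2% and 14% of all windows for AP-1, forkhead and Runx. A match is only a run of letters, not a measured binding site.

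All 3 TNF receptor family genes among the 10 fell, to different extents. Tnfrsf4 encodes OX40, a co-stimulatory receptor that regulatory T cells carry from their thymic precursors on. It was at 9.90, 9.70 and 6.85 CPM in the controls and at 2.53, 1.99 and 2.23 CPM in Toxf/fCd4Cre. The lowest control was above the highest Toxf/fCd4Cre library. The mean fell from 8.82 ± 1.71 to 2.25 ± 0.269 CPM, with -1.97 as log2 fold change (SE 0.20, edgeR adjusted p = 0.000156).

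Tnfrsf9 encodes 4-1BB, a co-stimulatory receptor induced by T cell receptor signals. Its levels were 17.7, 15.8 and 14 CPM in the control libraries, against 4.11, 4.67 and 5.71 CPM in Toxf/fCd4Cre. No Toxf/fCd4Cre library came near the controls. The log2 fold change was -1.72 (SE 0.15, edgeR adjusted p = 6.13e-05).

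Tnfrsf18 encodes GITR, and its locus lies next to that of Tnfrsf4 on chromosome 4, with 12627 bases between the starts of their RefSeq promoter windows. It was at 18.3, 17.1 and 16 CPM in the controls and at 11.5, 8.66 and 10.6 CPM in Toxf/fCd4Cre. The groups did not overlap, with a log2 fold change of -0.75 (SE 0.13, edgeR adjusted p = 0.00579). In GENCODE M21 the exons of Tnfrsf18 overlap those of the antisense gene Gm16008 on the other strand over 414 of 1524 bases. Exons on the other strand also overlap Ikzf2 (Gm29114, 144 of 11613 bases) and Ikzf4 (Gm26876, 37 of 5995 bases). As for Foxp3, the use of strand in counting is not given. The call ended when only the libraries of 3-week mice were used (log2 fold change -0.79, adjusted p = 0.0847). Ratios of 3 pairs of genes within a library, here and below, were chosen after their values were seen. Each was taken with 0.5 CPM added to both genes, so the CPM values printed here give somewhat different ratios. The log2 ratio of Tnfrsf4 to Tnfrsf18 was -0.86, -0.79 and -1.17 in the controls and -1.98, -1.88 and -2.02 in Toxf/fCd4Cre. It thus differed between the genotypes by -1.02 without overlap (two-sided exact permutation test, p = 0.1, below which 3 against 3 libraries cannot go).

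The ligands of these receptors are made by dendritic cells, B cells and other antigen-presenting cells. Tnfsf9, the 4-1BB ligand gene, fell from 3.68 ± 0.486 to 1.65 ± 0.303 CPM (log2 fold change -1.15, SE 0.23, edgeR adjusted p = 0.0162), a call that ended without control replicate 1 or 2 or Toxf/fCd4Cre replicate 1 (highest adjusted p over all settings 0.19). Tnfsf4, the OX40 ligand gene, and Tnfsf18, the GITR ligand gene, were too low for the filter. Their means were 0.639 and 0.15 CPM for Tnfsf4 and 0.2 and 0.111 CPM for Tnfsf18, in controls and Toxf/fCd4Cre.

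No gene of the interleukin-2 receptor passed the test. Il2ra was at 104, 92.4 and 93.3 CPM in the controls and at 109.7, 113 and 107 CPM in Toxf/fCd4Cre. All 3 Toxf/fCd4Cre libraries were above all 3 controls, but the log2 fold change was 0.19 (SE 0.07, 95% interval 0.03 to 0.34) and did not pass after adjustment (edgeR, unadjusted p = 0.0215, adjusted p = 0.20). Il2rb and Il2rg, the signalling subunits of the receptor, were at 40.8 and 35.4 CPM and at 355 and 339 CPM in controls and Toxf/fCd4Cre (edgeR adjusted p = 0.40 and 0.70). Il2, the cytokine gene, had 2 counts in control replicate 3 and 0 in the other 5 libraries.

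Of 13 tested genes of interleukin-2 and interleukin-7 signalling besides Il2ra, 0 passed the edgeR test, with 3 at an unadjusted p under 0.05, 1 called by DESeq2 and 0 by limma-voom. Their median log2 fold change was -0.10. In edgeR, leaving out 1 library gave 0 to 1 lower and 0 to 1 higher. The smallest p belonged to Socs1, a feedback inhibitor of cytokine signalling (74.6 ± 6.25 and 90.6 ± 3.01 CPM, adjusted p = 0.073), followed by Il7r (41 and 29.8 CPM), the kinase gene Jak3 (40.4 and 34 CPM) and Il7 (18.5 and 21.4 CPM).

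Ctla4 encodes the receptor with which regulatory T cells compete for the ligands CD80 and CD86. It was at 6.37, 8.81 and 11.8 CPM in the controls and at 10.8, 9.10 and 11.6 CPM in Toxf/fCd4Cre. The controls spread over the whole range of the Toxf/fCd4Cre libraries and beyond it. The log2 fold change was 0.22 (SE 0.20, 95% interval -0.21 to 0.65, edgeR adjusted p = 0.63). The log2 ratio of Foxp3 to Ctla4 was -0.08, -0.73 and -1.29 in the controls and -4.17, -4.26 and -4.59 in Toxf/fCd4Cre, with 0.5 CPM added to both genes. The difference of -3.64 (two-sided exact permutation test, p = 0.1) depends on that addition, since Foxp3 was at 0 in 2 libraries, and was -5.58 with 0.1 CPM.

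Of the partners of CTLA-4, Cd80 fell from 14.8 ± 2.08 to 7.65 ± 0.42 CPM (log2 fold change -0.95, SE 0.14, edgeR adjusted p = 0.00193). Cd86 was at 28.6 and 22.7 CPM (edgeR adjusted p = 0.095) and Cd28, the activating receptor for the same ligands, at 240 and 235 CPM (adjusted p = 0.85). Counting these with Tnfsf9, 5 of 9 tested genes of ligands and co-stimulators fell and none rose, with a median of -0.69. The other 3 were Cd40 (18.6 ± 1.45 to 10.3 ± 1.32 CPM), the receptor by which T cells activate antigen-presenting cells, the ICOS ligand gene Icosl (13.9 ± 0.857 to 9.16 ± 0.707 CPM) and Cd70 (0.993 to 0.283 CPM). Cd70 was named after its values were seen. Leaving out 1 library left 2 to 5 of these 5 calls. Icosl was lost without control replicate 1 or 2, and Cd70 when any library except Toxf/fCd4Cre replicate 3 was left out. Cd70 was also not called by DESeq2, with no filter or with age as a covariate, and passed in 6 of 16 alternative settings. None of the 5 passed in the 3-week libraries alone. Tgfb1, whose product helps thymic regulatory T cells survive, was at 121 and 117 CPM (adjusted p = 0.81).

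Of the Ikaros family genes among the 10, Ikzf4 fell and Ikzf2 did not pass. Ikzf2 encodes Helios, a zinc finger factor of most thymic regulatory T cells that other thymocytes also express, and Ikzf4 encodes Eos, a corepressor partner of FOXP3. Ikzf4 was at 10.9, 9.70 and 8.92 CPM in the controls and at 3.10, 2.93 and 3.27 CPM in Toxf/fCd4Cre. The Toxf/fCd4Cre libraries lay close together and far below the controls (log2 fold change -1.67, SE 0.16, edgeR adjusted p = 8.81e-05).

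Ikzf2 was at 78.3, 73.8 and 70.1 CPM in the controls and at 68.3, 71.1 and 97.1 CPM in Toxf/fCd4Cre. Replicate 3 of Toxf/fCd4Cre was the highest of all, and the other 2 lay within or just below the control range. The log2 fold change was 0.09 (SE 0.12, 95% interval -0.17 to 0.35, edgeR adjusted p = 0.77), and -0.09 without that replicate. With 0.5 CPM added to both genes, the log2 ratio of Ikzf4 to Ikzf2 was -2.79, -2.86 and -2.91 in the controls. It was -4.26, -4.38 and -4.69 in Toxf/fCd4Cre, a difference of -1.59 without overlap (two-sided exact permutation test, p = 0.1). The other members of the family, Ikzf1 (747 and 786 CPM), Ikzf3 (255 and 244 CPM) and Ikzf5 (72.2 and 70.8 CPM), did not pass. None of the 3 had an unadjusted p under 0.05 in edgeR, and neither DESeq2 nor limma-voom called any.

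Gpr83 encodes a G protein-coupled receptor that is enriched in regulatory T cells. It was at 14.7, 13.3 and 12 CPM in the controls and at 3.16, 4.55 and 2.37 CPM in Toxf/fCd4Cre. The groups lay far apart, and the mean fell from 13.4 ± 1.34 to 3.36 ± 1.11 CPM (log2 fold change -1.98, SE 0.20, edgeR adjusted p = 0.000148).

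Lrrc32 encodes GARP, which holds latent TGF-beta on the surface of activated regulatory T cells and is also made by platelets and endothelium. It was at 7.85, 7.79 and 5.99 CPM in the controls and at 3.48, 4.86 and 3.06 CPM in Toxf/fCd4Cre. The groups came closest in control replicate 3 and Toxf/fCd4Cre replicate 2 but did not overlap. The log2 fold change was -0.92 (SE 0.20, edgeR adjusted p = 0.0255). The call ended without control replicate 1 (adjusted p = 0.121), control replicate 2 (0.117) or Toxf/fCd4Cre replicate 1 (0.122), with age as a covariate (0.0527) and in the 3-week libraries alone (0.382). Among 8 tested endothelial and platelet markers, 0 passed edgeR, 0 had an unadjusted p under 0.05 and 0 were called by DESeq2 or limma-voom. Their summed level was 238 to 249 CPM in the controls and 212 to 258 CPM in Toxf/fCd4Cre. Most of it was Pecam1 (188 and 183 CPM), named after its values were seen. The groups did not overlap for 2 of the 8, against 22% of all genes tested. These were Pf4, lower (2.67 and 2.07 CPM), and Egfl7, higher (4.69 and 5.51 CPM).

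Levels of different genes can be compared only per length, and for this the authors' FPKM values were used. In the controls Il2ra was highest (22.7 ± 1.68 FPKM), followed by Tnfrsf18 (14.7 ± 1.16) and Ikzf2 (13.1 ± 1.31), then Tnfrsf9 (9.46 ± 1.43) and Tnfrsf4 (8.60 ± 1.73), then Ctla4 (4.66 ± 1.36) and Gpr83 (4.08 ± 0.538), and last Ikzf4 (2.42 ± 0.386), Lrrc32 (2.22 ± 0.318) and Foxp3 (1.73 ± 0.361). Within each of these steps the ranges of neighbouring genes overlapped, and between the steps they did not. In Toxf/fCd4Cre, Il2ra (25.2 ± 0.71 FPKM), Ikzf2 (12.9 ± 2.67), Tnfrsf18 (8.76 ± 1.17) and Ctla4 (5.39 ± 0.623) led, with no overlap between neighbours. They were followed by Tnfrsf9 (3.33 ± 1.17), Tnfrsf4 (2.17 ± 0.268), Gpr83 (1.05 ± 0.382), Lrrc32 (0.977 ± 0.235) and Ikzf4 (0.70 ± 0.0794), where the ranges of neighbouring genes met or overlapped except between Tnfrsf4 and Gpr83. Foxp3 was listed at 0.04, 0 and 0 FPKM. Ctla4 thus stood below Tnfrsf4 and Tnfrsf9 in the controls and above them in Toxf/fCd4Cre.

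Other genes linked to regulatory T cells moved in both directions. Of 20 listed, 18 were tested, 5 fell, 4 rose and 9 did not pass, with a median log2 fold change of -0.20 and a range from -1.26 to 0.76 (4.11% of all genes tested passed in either direction). Ccr4, a chemokine receptor of thymocytes entering the medulla and of regulatory T cells, fell from 61 ± 2.86 to 33.1 ± 1.04 CPM (edgeR adjusted p = 4.55e-05). Tnfrsf25, the death receptor DR3, fell from 6.34 ± 0.776 to 2.64 ± 0.083 CPM (adjusted p = 0.00168), and Izumo1r, which encodes folate receptor 4, from 17.2 ± 0.62 to 9.51 ± 1.62 CPM (adjusted p = 0.00311).

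Itgae, the integrin alpha E (CD103) gene, rose from 21.3 ± 1.09 to 36.2 ± 6.14 CPM (edgeR adjusted p = 0.00333), and the 3 Toxf/fCd4Cre libraries were all above the controls. The other genes that passed were Ebi3, a cytokine subunit gene, and Itgb8, an integrin that activates TGF-beta, which fell, and Icos, Nt5e (CD73) and Nrp1 (neuropilin-1), which rose. These 5 were named after their values were seen, and each lost its call without control replicate 1 or 2. Ebi3, Icos, Nt5e and Itgb8 also lost it without Toxf/fCd4Cre replicate 1, Icos and Itgb8 without control replicate 3, and Itgb8 without Toxf/fCd4Cre replicate 2. Itgb8 passed in only 4 of 16 alternative settings, and DESeq2, limma-voom, both FPKM fits and the fit with age did not call it. Ebi3 passed in 10 of 16, and Nrp1, Nt5e and Icos in 12, 11 and 9 of 17. Over the 6 leave-one-out fits, 3 to 5 of the genes in this list were lower and 1 to 4 higher. Tnfrsf25 and Itgae did not pass in the 3-week libraries alone (edgeR adjusted p = 0.0658 and 0.0642), whereas Ccr4 and Izumo1r passed in every alternative run. Il10 and Klrg1 were too low to be tested.

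Factors that act on the Foxp3 gene or are linked to its induction were followed next. Of 20, 5 fell, none rose and 15 did not pass (median log2 fold change -0.10). Leaving out 1 library gave 4 to 7 lower and 0 to 2 higher. Nr4a1, an orphan receptor gene induced by T cell receptor signals, fell from 88.3 ± 6.42 to 43.5 ± 3.44 CPM (edgeR adjusted p = 3.45e-05), and its relative Nr4a3 from 27.4 ± 4.41 to 15.8 ± 1.22 CPM (adjusted p = 0.00378, and 0.145 in the 3-week libraries alone). Bach2, a repressor that restrains effector genes, fell from 38.1 ± 2.66 to 13.2 ± 3.29 CPM (adjusted p = 0.000116), and Rel, the NF-kB subunit c-Rel, from 47.4 ± 1.74 to 29.6 ± 1.41 CPM (adjusted p = 0.000463). The fifth was Tet2, a DNA demethylation enzyme gene named after its values were seen (48.8 to 35 CPM, a call lost on leaving out control replicate 1, control replicate 2 or Toxf/fCd4Cre replicate 1). Satb1, Foxo1, Ets1, Runx1 and Cbfb, also named after their values were seen, did not pass and had log2 fold changes of 0.02, -0.26, -0.16, 0.15 and 0.07.

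**Figure D2:**
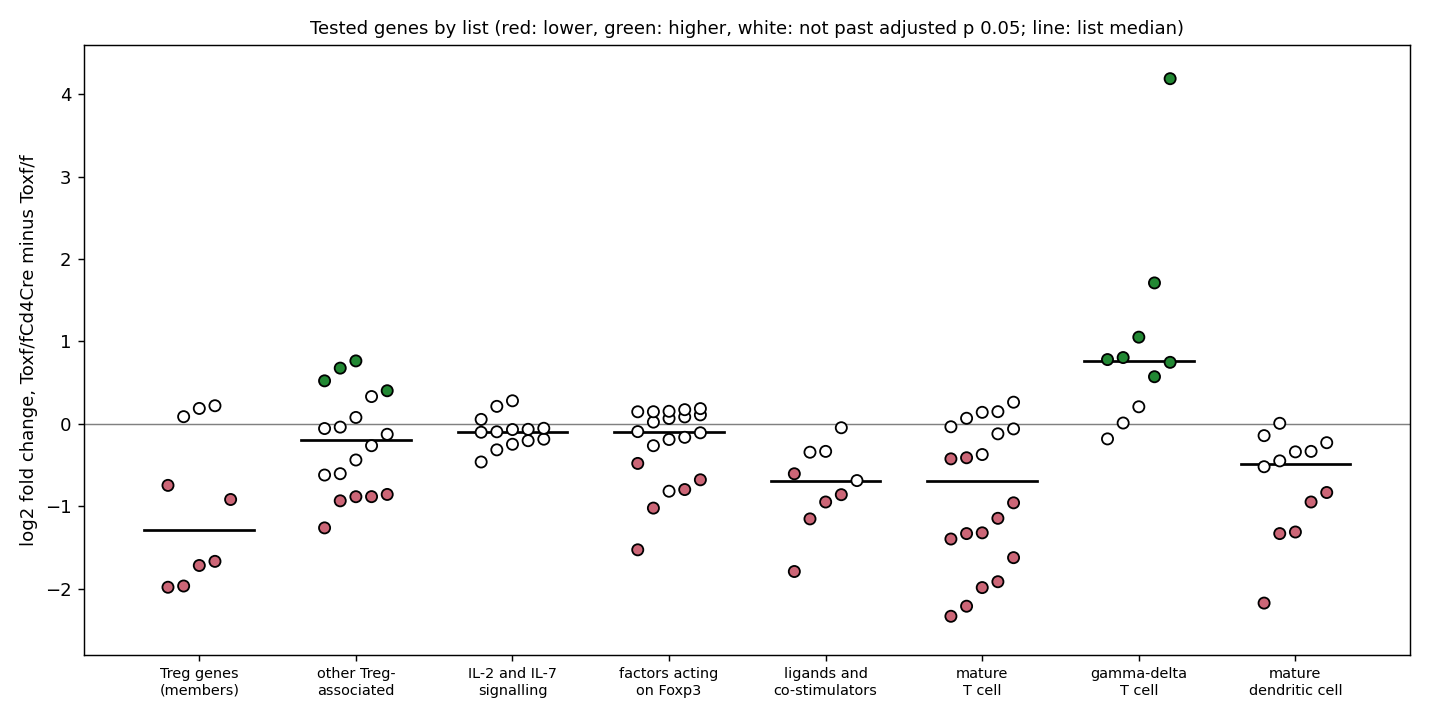
Log2 fold change (y axis, Toxf/fCd4Cre minus Toxf/f) of each tested gene in 8 lists, with genes lower in red, higher in green and not past an adjusted p of 0.05 in white, and list medians as lines. Foxp3 is not drawn because its fitted value rests on 2 counts against 236, but it is counted in the members' median line. The 10 members, Foxp3 included, have the lowest median of the 8 lists, -1.29.

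Markers of other cells moved between the same libraries. Of 20 mature T cell genes, 12 fell and none rose, with a median of -0.69 and a summed level of 2245 to 2374 CPM in the controls and 1757 to 1800 CPM in Toxf/fCd4Cre. Itm2a, Gimap4, Gimap3 and the CD4 lineage factor gene Zbtb7b had the smallest p, with log2 fold changes of -1.99, -2.33, -2.21 and -1.62. Of 10 gamma-delta T cell genes, which belong to cells that can also carry TNF receptors, 7 rose and none fell, with sums of 635 to 646 and 936 to 987 CPM. Mature dendritic cell genes had 5 of 12 lower and none higher (1824 to 2039 and 1481 to 1663 CPM), and B and plasma cell genes 4 of 10 lower and none higher (338 to 350 and 282 to 288 CPM). DN2 and DN3 genes had 2 of 13 higher and none lower (5996 to 6231 and 6208 to 6887 CPM), NK and innate lymphoid genes 3 of 8 tested higher and none lower (88.5 to 103 and 98 to 143 CPM), and thymic epithelial genes 4 of 10 higher and 2 lower (1117 to 1273 and 1333 to 1433 CPM). These lists share genes: Ccr7 counts as lower among both mature T cell and dendritic cell genes, and Cd80 among both dendritic cell genes and the ligands above. Most of the dendritic cell sum was H2-Aa (719 and 614 CPM in controls and Toxf/fCd4Cre) and Cd74 (726 and 658 CPM), which did not pass. Most of the DN2 and DN3 sum was Rag1, at 4932 and 5244 CPM in controls and Toxf/fCd4Cre. In edgeR, 5 of the 13 had an unadjusted p under 0.05: Ptcra, Notch3 and Dtx1, higher, and Kit and Il7r, lower. Leaving out 1 library gave 1 to 2 higher and 0 to 1 lower DN2 and DN3 genes. It gave 2 to 4 higher and 1 to 3 lower thymic epithelial genes, and 11 to 12 lower and 0 to 1 higher mature T cell genes. The DN2 and DN3 gene that lost its call was Notch3, without any library other than Toxf/fCd4Cre replicate 3. Among the epithelial genes, Krt5 lost it without control replicate 2 or 3 or Toxf/fCd4Cre replicate 1, Krt8 without any library other than Toxf/fCd4Cre replicate 3, and Krt14 without control replicate 1 or 2 or Toxf/fCd4Cre replicate 2 or 3. In the 3-week libraries alone (edgeR, 2 against 2), no DN2 or DN3 gene was called higher, no thymic epithelial gene was called, and 4 gamma-delta genes were higher and 3 dendritic cell genes lower. Krt8, Krt14, Rag1, Dtx1, H2-Aa and Cd74 were named after their values were seen. No marker of these lists was at 0 in all 6 libraries. The part of these cells in the changes of the 10 genes was not tested.

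To set the 10 genes beside other transcripts of mature T cells in the same library, the log2 ratio of each gene (CPM plus 0.5) to the summed CPM of the 20 mature T cell genes was taken. The ratio of Foxp3 was -8.52, -8.72 and -8.80 in the controls and -11.5, -11.8 and -11.8 in Toxf/fCd4Cre, a difference of -3.01. With 0.1 CPM added in place of 0.5 it was -4.94, since 2 of the Toxf/fCd4Cre libraries had no Foxp3 count. The ratios of Gpr83, Tnfrsf4, Tnfrsf9, Ikzf4 and Tnfrsf18 differed by -1.49, -1.36, -1.24, -1.14 and -0.34, and that of Lrrc32, whose groups overlapped, by -0.47. For Il2ra and Ikzf2 the ratio was higher in Toxf/fCd4Cre, by 0.57 and 0.46, without overlap, and for Ctla4 by 0.63 with overlap. The two-sided exact permutation test gave p = 0.1 for each of the 8 genes without overlap, the smallest it can give, and p = 0.2 for Ctla4 and Lrrc32, so that none reached 0.05. Over the 10 tests the smallest p after Benjamini-Hochberg adjustment was 0.125. When the median log2 level of the 20 genes in each library replaced their sum, the difference was -1.84 for Foxp3, -0.32 for Gpr83, -0.19 for Tnfrsf4, -0.06 for Tnfrsf9 and 0.04 for Ikzf4. It turned to 0.84 for Tnfrsf18 and 0.71 for Lrrc32. That median can fall on different genes in each genotype, and it is not the list's median log2 fold change of -0.69. These differences thus do not compare a gene with the fall of a typical mature T cell gene. Of the 7 genes that fell, only Foxp3 was lower without overlap with both denominators.

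**Figure D3:**
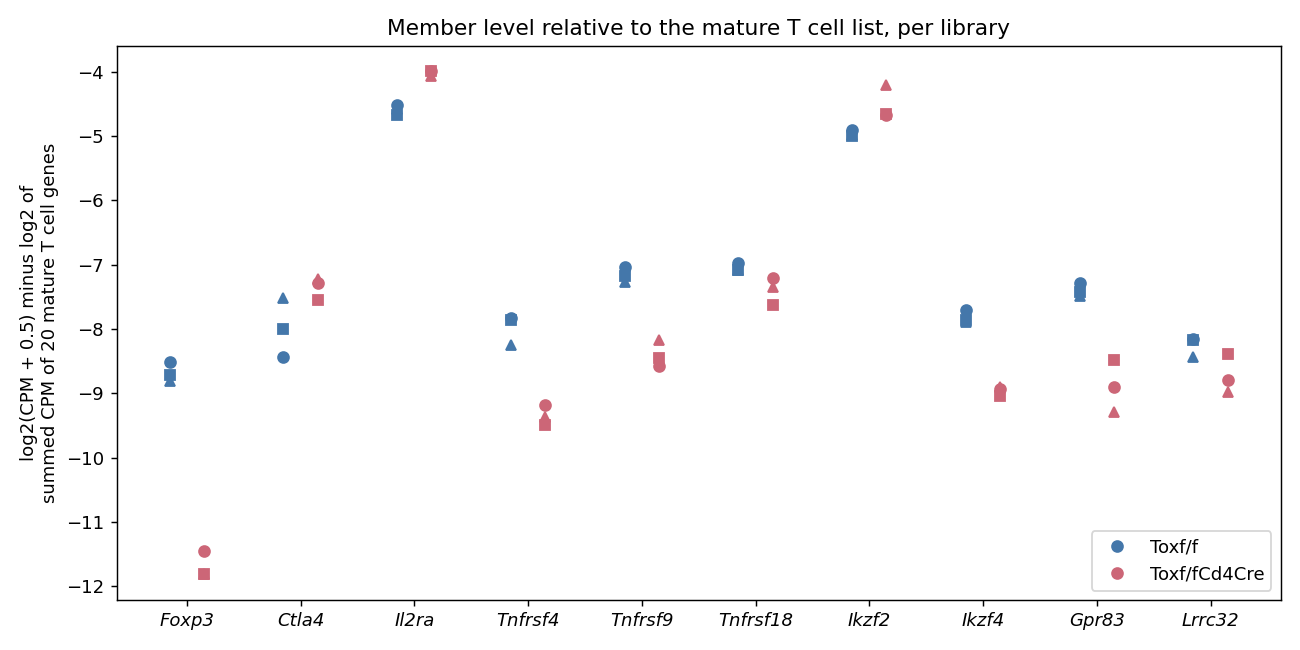
Log2 ratio (y axis) of each of the 10 genes to the summed CPM of 20 mature T cell genes, in each Toxf/f (blue) and Toxf/fCd4Cre (red) library, with circles, squares and triangles for replicates 1 to 3. The ratio of Foxp3 was -8.80 to -8.52 in the controls and -11.8 to -11.5 in Toxf/fCd4Cre, and those of Il2ra and Ikzf2 lay above the controls.

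Among the genes whose log2 CPM followed that of Foxp3 most closely over the 6 libraries, members left out, were Oas2, a sensor of double-stranded RNA (Pearson's r 0.999), Fcer2a, the low-affinity IgE receptor of B cells (0.998), Csmd2 (0.998) and Ccl22, a chemokine of mature dendritic cells that binds CCR4 (0.996). The 6 points fall into the 2 genotypes, so these values mostly describe the difference between groups. Oas2 was at 13.8 and 3.78 CPM, Fcer2a at 9.92 and 1.47 CPM and Ccl22 at 117 and 26.0 CPM in controls and Toxf/fCd4Cre. Csmd2 was at 0.707 and 0.216 CPM and did not pass (edgeR adjusted p = 0.078).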

How the data were processed

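Estimated counts and FPKM values per gene were deposited by the authors for 6 mouse thymocyte libraries (3 Toxf/f, 3 Toxf/fCd4Cre). Tools named are StringTie 1.3.1, HISAT2 without a version, and fastp 0.18.0, per the submitters' processing notes. For the counting program, its use of strand, the genome build and the annotation, names were not given in the sources used here. Estimated counts carry no normalization, per the file headers, and 9.27% to 9.87% of them in a library had decimals. The deposited FPKM values were scaled by the authors for gene length and library size.

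After rounding, counts entered edgeR 4.0.16 (R 4.3.3): filterByExpr (minimum count 10, minimum total 15), TMM, and the quasi-likelihood test of genotype over all 6 libraries, two-sided, with Benjamini-Hochberg adjustment over 13934 genes and a threshold of 0.05. SEs come from the F statistic and the fold change, and SDs are over 3 libraries. The 13 other marker and pathway lists, the named-gene rule and the members were chosen with earlier results of these data known. The rule named all 10 members, up to 4 genes with the smallest p per list, receptor and ligand partners, Tox, and the 5 genes closest to Foxp3 by Pearson's r of log2 CPM (prior count 2), of which 1 is not reported here. Other names are marked as chosen after their values were seen.

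Alternatives were other filters and scalings (all genes kept, means of at least 5 CPM, RLE, upper quartile), DESeq2 1.42.0, limma-voom and limma 3.58.1 on log2(FPKM + 0.1) and log2(FPKM + 1), a replicate block, age, the 3-week libraries, and leaving out each library. GENCODE M21 served for exon overlaps and RefSeq (GRCm38.p6) for promoter letters, of which the 50 bases after the start site were left out.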

Additional observations from a re-analysis of the deposited data

How the results depend on the processing

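The count of 7 lower and 0 higher members held with no filter, RLE and upper quartile scaling, DESeq2, limma-voom and both FPKM fits. It was 6 with age as a covariate, 6 to 7 without 1 library and 5 in the 3-week libraries. Over all genes, 572 passed (412 lower, 160 higher). Leaving out 1 library gave 298 to 1269 (231 to 794 lower, 67 to 475 higher), lowest without control replicate 2 and highest without Toxf/fCd4Cre replicate 3. The 3-week libraries gave 151 (123 lower, 28 higher). Limma on log2(FPKM + 0.1) and log2(FPKM + 1) gave 102 and 101 higher genes. The causes were not tested.

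Ikzf2 turned to -0.088 without Toxf/fCd4Cre replicate 3 and to -0.039 and -0.036 on the 2 FPKM scales (highest without 1 library, 0.181 without Toxf/fCd4Cre replicate 1). Without 1 library, Cd28 ranged from -0.066 to 0.002 (without Toxf/fCd4Cre replicate 1) and Tgfb1 from -0.1 to 0.011 (without Toxf/fCd4Cre replicate 3). With the list's median log2 level in each library as denominator, the ratio to mature T cell genes turned to 0.836 for Tnfrsf18, 0.041 for Ikzf4 and 0.707 for Lrrc32.

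Same-numbered libraries share an age, and the labels name no litter or day. Their deviations from the group means correlated at 0.085, -0.11 and -0.043, against -0.079 to 0.11 for libraries of different number. With 3 libraries per group these values cannot tell whether the libraries are paired. The main fit used genotype alone, the only contrast that the labels give. The replicate block gave 440 calls, 425 of them among the 572, and 7 lower members. Of the genes named, Itgb8, Icos, Ebi3, Tet2, Tnfsf9, Cd70 and Krt8 lost their calls under it. At these depths Foxp3 rests on 2 counts in Toxf/fCd4Cre, and its fitted fold change depends on the prior count. It was not tested at a mean of at least 5 CPM.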

Other observations

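Of the gamma-delta T cell genes, which moved opposite to most of the regulatory T cell genes, Cd163l1, a scavenger receptor gene of interleukin-17-producing gamma-delta cells, rose from 2.63 ± 0.207 to 48.1 ± 7.58 CPM (edgeR adjusted p = 3.13e-08, n = 3). Trdc, the constant region of the delta chain, rose from 178 ± 12.4 to 305 ± 18.8 CPM (adjusted p = 0.000132).

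Among the controls, 9 of the 10 regulatory T cell genes were highest in replicate 1, the only control from 4-week mice, and Ctla4 was lowest there. In Toxf/fCd4Cre, 3 of the 10 were highest in replicate 1, among them Foxp3 with 2.05 counts against 0 and 0. The share over all genes was not taken, so these counts cannot be set against it. With 1 library at 4 weeks in each genotype, age and library cannot be told apart.

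Ppp1r3f, whose exons overlap those of Foxp3 over 266 bases, was at 3.15, 3.21 and 2.53 CPM in the control libraries, against 1.77, 2.31 and 1.32 CPM in Toxf/fCd4Cre. It did not pass (log2 fold change -0.71, edgeR adjusted p = 0.18).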
